A study of Mus musculus with 6 samples.

Results

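The elastic fibre genes described here are the 10 genes Eln, Fbn1, Fbln1, Fbln5, Mfap2, Mfap4, Mfap5, Efemp2, Ltbp2 and Emilin1. They were taken by symbol from the gene-by-barcode count tables of 6 scRNA-Seq libraries, and all 10 were among the 20490 gene symbols present in all 6 tables. The libraries came from Pdgfra-GFP reporter mice, in which GFP marks cells with an active Pdgfra promoter, and the sort on GFP was meant to collect lung fibroblasts (FBs). In the single-dose experiment, GFP+ cells were collected 14 days after oropharyngeal aspiration of PBS or bleomycin, a drug that injures the alveolar epithelium and leads to lung fibrosis. The bleomycin dose of this experiment was 2 U/kg in the protocol and 4 U/kg in the treatment field of the sample label. In the repetitive-dose experiment, mice received PBS or bleomycin in 3 weekly doses (1, 1 and 0.5 U/kg of bleomycin), and GFP+ cells were collected 14 days after the last. The organoid experiment combined type 2 alveolar epithelial cells (AEC2s), taken from tamoxifen-treated SpcCreER tomato mice, with GFP+ FBs of Pdgfra-GFP mice and cultured them for 2 weeks. Normal organoids held FBs of PBS-treated mice, and fibrogenic organoids held FBs of mice given 2 U/kg of bleomycin 14 days before. Each condition was 1 library made from 3 pooled mice.

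Elastic fibres give the alveolar wall and the vessels of the lung their recoil. Tropoelastin, the product of Eln, is secreted by FBs and smooth muscle cells, gathers on a scaffold of microfibrils built of fibrillin, and is crosslinked by enzymes of the lysyl oxidase family into insoluble elastin. Microfibril-associated proteins and EMILIN proteins sit on or between these parts, fibulins guide tropoelastin and the crosslinking enzymes to the scaffold, and latent TGFB binding proteins tie the microfibrils to growth factor storage. Most elastin is laid down while alveoli form, and it turns over slowly in the healthy adult lung.

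The deposited values were raw counts of unique molecular identifiers (UMIs), which count captured transcripts. The libraries held 1015 to 10737 barcodes and 7201081 to 238618743 UMIs, with medians of 2478 (repetitive bleomycin) to 36841 (normal organoid) UMIs per barcode. Single PBS and bleomycin counts listed 30830 and 30828 genes, and each repetitive and organoid library 32285. The part of these gene lists in level differences between experiments was not tested. FBs were gated by a panel of collagen genes and Pdgfra, which was detected in every library, and made up 859 and 797 barcodes of the single-dose PBS and bleomycin libraries, 5213 and 7500 of the repetitive libraries, and 2189 and 4209 of the normal and fibrogenic organoid libraries. Any pair of libraries shared at most 30 barcode sequences. Levels are the UMIs of a gene summed over the barcodes of a group and scaled to the total UMIs of that group as CPM, with exact 95% Poisson intervals in brackets. Differences are log2 ratios after adding 1 CPM, and folds carry exact 95% intervals. None of the intervals holds more than counting error. Because a condition had 1 library, the variation among mice could not be estimated, no difference was tested, and a difference between libraries cannot be told apart from the treatment. A gene is called raised or lowered where its log2 ratio was at least 1 in size, as a description of these libraries. Levels of different genes are not compared, since the counts were not tied to transcript length or capture.

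In FBs of the single-dose experiment, 5 of the 10 elastic fibre genes were raised in bleomycin over PBS, among 7.94% of the 10705 genes with at least 50 UMIs. The 5 were Ltbp2, Eln, Fbn1, Mfap2 and Efemp2, and their log2 ratios ran from 5.002 for Ltbp2 to 1.04 for Efemp2, which came to 0.97 relative to the median gene. Fbln5 was lowered at −1.04, among 3.72% of all genes, and stayed below the limit in 9 of 15 alternative settings, with a range of −1.11 to −0.60. The other 4 genes lay between −0.27 (Fbln1) and 0.94 (Mfap4). The median log2 ratio of the 10 genes was 0.99, beside 0.08 over all genes counted. In the repetitive-dose FBs, 5 genes were raised, among 7.02% of 15261 genes, and none was lowered, beside 1.85% of all genes. Ltbp2, Eln, Mfap2 and Fbn1 were raised in both experiments, and Mfap5 took the place of Efemp2, which was at 0.97. Fbn1 lay close to the limit after repetitive doses, at 1.02, and stayed at or above 1 in 11 of 15 processing alternatives. The median was 1.00 there, beside 0.11 over all genes, and relative to that median gene Fbn1 stood at 0.91, below the limit. In organoid FBs the direction differed gene by gene. No gene was raised in fibrogenic over normal organoids, beside 0.246% of 16246 genes, and Eln was lowered, among 0.782% of them. The median of the 10 genes was −0.11, beside −0.01 over all genes.

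**Figure D1:**
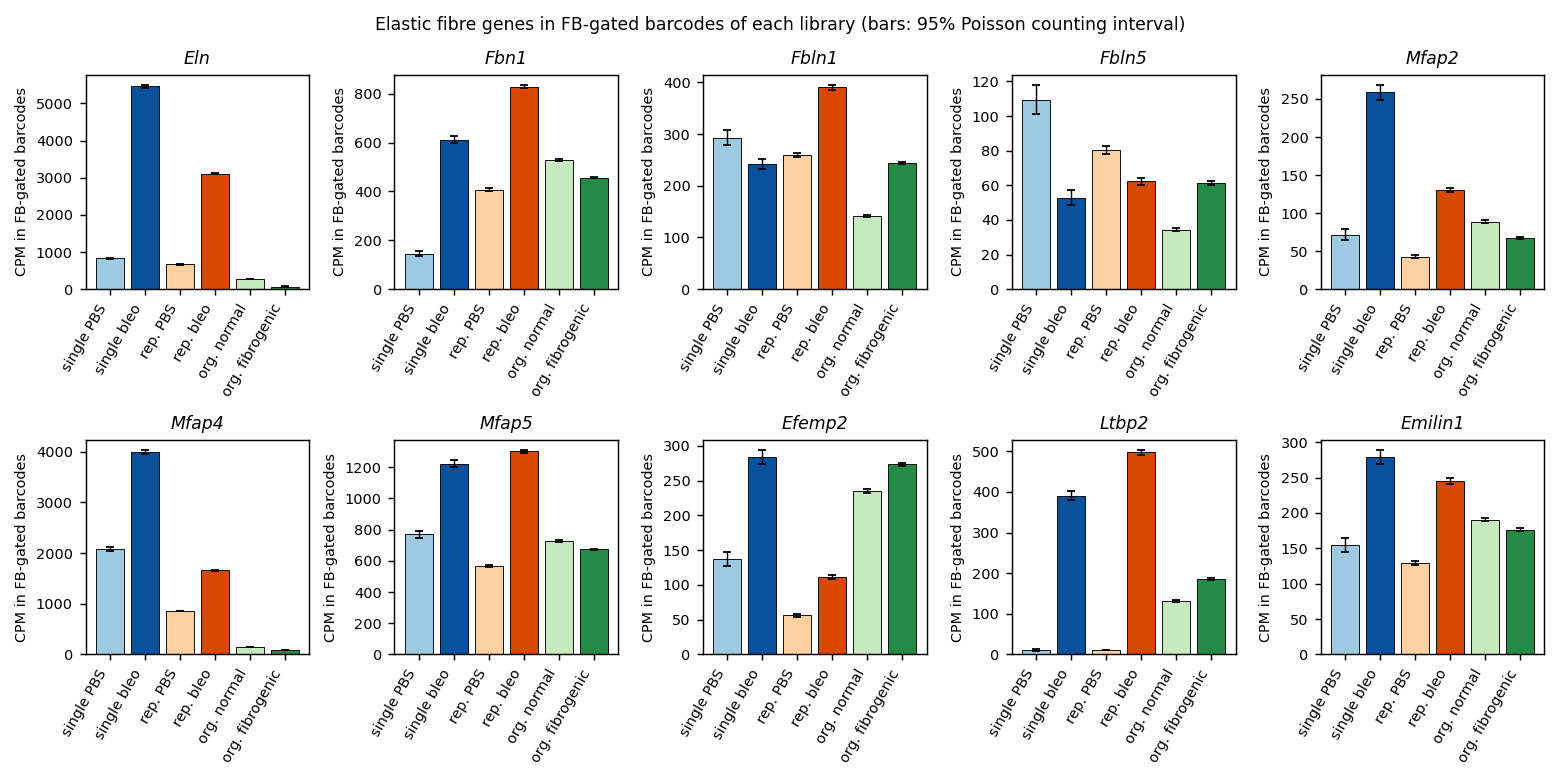
Level of each elastic fibre gene in gated FBs, in CPM of summed UMIs, for the 6 libraries. Bars start at 0, whiskers are exact 95% Poisson intervals, and each condition is 1 library of 3 pooled mice. Eln, Fbn1, Mfap2, Mfap4, Mfap5, Efemp2, Ltbp2 and Emilin1 were higher in bleomycin than in PBS in both lung experiments, while Fbln5 was lower in both.

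**Figure D2:**
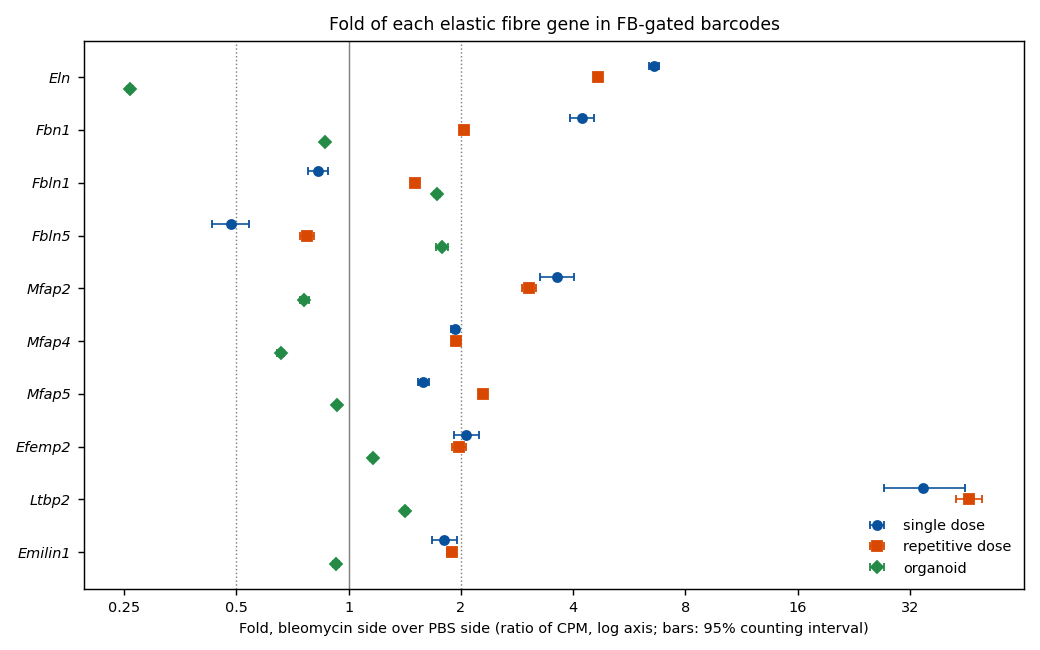
Fold of each elastic fibre gene in gated FBs, bleomycin over PBS or fibrogenic over normal, on a log axis for the 3 experiments. Whiskers are exact 95% counting intervals. Ltbp2 stands furthest from a fold of 1 in both lung experiments and Eln next, and Eln is the gene furthest below 1 in the organoids.

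Eln encodes tropoelastin, the monomer of the elastic core. The gene lies at chr5:134702593-134747323 on the minus strand of GRCm38. In FBs it stood at 828 CPM [805 to 852] after single PBS, 5457 CPM [5412 to 5502] after single bleomycin, 667 CPM [660 to 674] after repetitive PBS, 3111 CPM [3097 to 3125] after repetitive bleomycin, 277.5 CPM [274.5 to 280.5] in normal organoids and 71.9 CPM [70.6 to 73.2] in fibrogenic organoids. Both bleomycin libraries were above all other libraries, and both organoid libraries were below all lung libraries. The fold over PBS was 6.59 [6.40 to 6.79] after the single dose and 4.66 [4.61 to 4.72] after repetitive doses. In organoids Eln was 3.86-fold [3.78 to 3.94] lower with fibrogenic FBs, the opposite direction. The whole barcoded libraries, with no gate, gave the same direction, from 747 to 5229 CPM after the single dose.

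Fbn1, fibrillin 1, forms the backbone of the microfibril and lies at chr2:125300594-125507993 on the minus strand. Its FB level was 145 and 611 CPM in single PBS and bleomycin, 407 and 829 CPM in repetitive PBS and bleomycin, and 528.5 and 456 CPM in normal and fibrogenic organoids. The fold was 4.22 [3.93 to 4.54] after the single dose and 2.04 [2.00 to 2.07] after repetitive doses. The bleomycin libraries were the highest, and the 2 PBS libraries lay further apart than their counting intervals, at 135 to 155 and 402 to 413 CPM. In organoids the log2 ratio was −0.21 in gated FBs and 0.08 over all deposited barcodes.

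Mfap2 and Mfap5 encode the microfibril-associated glycoproteins that bind fibrillin. Mfap2 (chr4:141010418-141015984, plus strand) stood at 71.5 and 259 CPM in single PBS and bleomycin FBs, 42.8 and 130 CPM in repetitive PBS and bleomycin FBs, and 88.9 and 67.7 CPM in normal and fibrogenic organoid FBs. Its fold was 3.62 [3.26 to 4.01] after the single dose and 3.04 [2.91 to 3.19] after repetitive doses. Mfap5 (chr6:122505845-122529290, plus strand) had a smaller difference in the lung, at 771 and 1222 CPM in single PBS and bleomycin FBs and 567 and 1300 CPM in repetitive PBS and bleomycin FBs. Its folds were 1.59 [1.53 to 1.64] and 2.29 [2.26 to 2.32]. In organoids Mfap5 stood at 726 and 675 CPM with normal and fibrogenic FBs, a log2 ratio of −0.11 in gated FBs and of 0.19 over all deposited barcodes.

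Mfap4, which binds both elastin and fibrillin, lies at chr11:61485431-61488900 on the plus strand. FBs held 2076 and 3992 CPM of Mfap4 in single PBS and bleomycin, 857 and 1663 CPM in repetitive PBS and bleomycin, and 144.5 and 94.9 CPM in normal and fibrogenic organoids. The folds were 1.92 [1.89 to 1.96] and 1.94 [1.92 to 1.96], just under the log2 limit of 1, and the organoid level was 1.52-fold [1.49 to 1.56] lower with fibrogenic FBs. The single-dose PBS library held more Mfap4 than the repetitive bleomycin library.

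Emilin1 (chr5:30913402-30921277, plus strand) encodes a glycoprotein found where elastin meets microfibrils. It stood at 154 and 279 CPM in single PBS and bleomycin FBs, 130 and 245 CPM in repetitive PBS and bleomycin FBs, and 190 and 176 CPM in normal and fibrogenic organoid FBs. The folds in the lung were 1.81 [1.68 to 1.95] and 1.89 [1.84 to 1.94]. In organoids the log2 ratio was −0.11, and 0.18 over all deposited barcodes.

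Ltbp2 encodes a latent TGFB binding protein family member that attaches to fibrillin microfibrils and, unlike its relatives, does not bind latent TGFB. It had the largest lung folds among the 10 genes. Ltbp2 lies at chr12:84783212-84876532 on the minus strand. In PBS FBs it stood at 11.2 CPM [8.70 to 14.3] after the single dose, from 67 UMIs, and 10.8 CPM [9.98 to 11.7] after repetitive doses, from 630 UMIs. In bleomycin FBs it stood at 391 CPM [379 to 403] and 497 CPM [492 to 503]. The folds were 34.8 [27.36 to 45.02] and 46.0 [42.5 to 49.9]. In organoid FBs Ltbp2 stood at 131.5 CPM [129.4 to 133.6] in normal and 186 CPM [184 to 188] in fibrogenic organoids. The normal organoid level lay above both PBS lung levels, and these libraries also differ in culture and depth.

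The fibulins were the group with mixed directions. Fbln5 encodes fibulin-5, which tethers tropoelastin to microfibrils and to cell surface integrins, and lies at chr12:101746565-101819055 on the minus strand. Its FB level was 109 CPM [101 to 118] in single PBS, 52.7 CPM [48.4 to 57.4] in single bleomycin, 80.5 CPM [78.3 to 82.9] in repetitive PBS, 62.3 CPM [60.3 to 64.4] in repetitive bleomycin, 34.5 CPM [33.4 to 35.5] in normal organoids and 61.2 CPM [60.03 to 62.42] in fibrogenic organoids. It was 2.07-fold [1.85 to 2.33] lower after single bleomycin and 1.29-fold [1.24 to 1.35] lower after repetitive bleomycin, and 1.78-fold [1.71 to 1.84] higher in fibrogenic organoids. The direction in each of the 3 experiments was thus the reverse of that of Eln.

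Fbln1, fibulin 1, associates with elastic fibres and basement membranes and lies at chr15:85205949-85286535 on the plus strand. Its FB level was 293 CPM [279 to 307] after PBS against 243 CPM [233 to 252] after bleomycin in the single-dose experiment, 1.21-fold lower [1.14 to 1.28]. In the repetitive experiment the bleomycin FBs stood at 390 CPM [385 to 395] against 259 CPM [255 to 263] for PBS, 1.51-fold higher [1.477 to 1.539]. In organoids it was 141 CPM [139 to 144] with normal and 244 CPM [242 to 247] with fibrogenic FBs, 1.73-fold higher [1.70 to 1.76]. Fbln1 was the only one of the 10 genes whose direction differed between the 2 lung experiments, and its single-dose log2 ratio turned to 0.17 with the mean CPM per barcode in place of summed counts.

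Efemp2 encodes fibulin-4, which brings lysyl oxidase to tropoelastin, and lies at chr19:5473954-5482517 on the plus strand. Its FB level was 137 and 284 CPM in single PBS and bleomycin, 56.1 and 111 CPM in repetitive PBS and bleomycin, and 236 and 273.5 CPM in normal and fibrogenic organoids. The folds were 2.07 [1.91 to 2.24], 1.98 [1.90 to 2.06] and 1.16 [1.14 to 1.18], so Efemp2 was higher on the bleomycin side of all 3 experiments, as was Ltbp2.

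Promoter sequences are shown for Ltbp2, Fbln5 and Fbln1, the genes with the largest lung fold, with the lower level in both lung experiments and with opposite directions. Of the 10 genes, 7 had an entry in the RefSeq promoter table of GRCm38.p6, and in 5 of these a window of 200 bases lay wholly upstream of the annotated starts. The windows were searched on both strands for the AP-1 motif TGANTCA, a site of Fos and Jun factors. They were also searched on both strands for a SMAD motif of the TGFB pathway, CAGACA, which cannot be part of the first. Capitals mark a match, in either orientation, and sequences read 5′ to 3′ on the strand of the gene, at chr12:84876533-84876732 (minus strand) for Ltbp2, chr12:101819120-101819319 (minus strand) for Fbln5 and chr15:85205749-85205948 (plus strand) for Fbln1.
Ltbp2: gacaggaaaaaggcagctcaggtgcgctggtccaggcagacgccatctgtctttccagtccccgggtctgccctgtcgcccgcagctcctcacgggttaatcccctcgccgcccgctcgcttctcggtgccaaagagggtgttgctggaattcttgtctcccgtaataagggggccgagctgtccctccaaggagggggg
Fbln5: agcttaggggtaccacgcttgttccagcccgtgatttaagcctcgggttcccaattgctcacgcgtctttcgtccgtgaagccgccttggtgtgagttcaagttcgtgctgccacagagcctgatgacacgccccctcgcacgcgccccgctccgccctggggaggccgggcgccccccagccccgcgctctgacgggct
Fbln1: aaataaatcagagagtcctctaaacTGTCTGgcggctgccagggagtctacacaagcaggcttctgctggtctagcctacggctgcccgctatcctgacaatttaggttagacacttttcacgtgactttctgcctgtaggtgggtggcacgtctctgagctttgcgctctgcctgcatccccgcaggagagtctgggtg
The AP-1 motif was in none of the 5 windows and is in 5.48% of the 32851 windows of this length in the table. The SMAD motif was in the Fbln1 window alone, once and in reverse orientation, and is in 13.8% of all windows. The windows of Ltbp2, Fbln5 and Fbln1 were 63.5%, 66.5% and 54.5% G or C. A match is a string of letters in this window and says nothing of binding.

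The lung FBs were divided into subsets by panels of marker genes that held none of the 10 elastic fibre genes. LipoFB-gated barcodes (Tcf21, Plin2, Wnt2 and others, alveolar FBs that carry lipid) made up 80.0% and 47.7% of FBs in single PBS and bleomycin, and 77.9% and 42.6% in repetitive PBS and bleomycin. MatrixFB-gated barcodes (Col14a1, Dcn, Pi16 and others, adventitial FBs) made up 14.4%, 21.7%, 19.8% and 41.0% in the same order. MyoFB-gated barcodes (Cthrc1, Spp1, Tagln, Acta2 and Postn) were 95 and 196 of the bleomycin libraries and 0 and 3 of the PBS libraries. Smaller gates held barcodes with Hhip, Wif1 and other genes of that panel, and with Sfrp1. In the repetitive experiment the Hhip and Wif1 gate also held 9980 CPM (PBS) and 6496 CPM (bleomycin) of the MatrixFB panel. Both were above the MatrixFB limit of 5000 CPM. The MyoFB gate of the lung libraries did not take in all FBs with high levels of its panel. In repetitive bleomycin the 772 FBs outside every gate, with a median of 1674 UMIs, held 9006 CPM of that panel. The Sfrp1 gate held 4966 CPM in single and 4088 CPM in repetitive bleomycin, against 22114 and 14485 CPM in the MyoFB gate. The MyoFB limit was 3000 CPM, and the FBs outside every gate in single bleomycin, at 1372 CPM, were below it. The gates had limits set after their distributions were seen. The 3072 MatrixFB-gated barcodes of repetitive bleomycin had a median of 2802 UMIs and the immunoglobulin gene Iglc3 among their leading genes.

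In LipoFB-gated barcodes, 7 of 10 elastic fibre genes were raised after the single dose, among 5.54% of 9418 genes, and 8 of 10 after repetitive doses, among 6.78% of 14018 genes. Eln went from 757 to 7356 CPM after the single dose, a fold of 9.72 [9.39 to 10.1], and from 624 to 3879 CPM after repetitive doses, a fold of 6.21 [6.13 to 6.29]. Both folds were larger than in all FBs. The LipoFB gate did not hold the same clusters in PBS and bleomycin. In Leiden clusters made without the 10 genes, 98.2% of LipoFB-gated bleomycin barcodes of the single dose lay in 4 clusters that held 0.291% of those of PBS, and 94.8% of the repetitive dose lay in 11 clusters that held 1.18% of those of PBS. Mfap4 stood at 2295 and 7007 CPM in single PBS and bleomycin and 923 and 2034 CPM in repetitive PBS and bleomycin, folds of 3.05 [2.99 to 3.12] and 2.20 [2.18 to 2.23]. Mfap4 was itself among the 10 leading genes of the LipoFB gate in single bleomycin. Ltbp2 went from 8.48 to 390 CPM and from 7.66 to 582 CPM. Fbln5 was the only one of the 10 genes below 0 in this gate, with log2 ratios of −0.55 and −0.40.

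In MatrixFB-gated barcodes, 5 of 10 genes were raised after the single dose, among 3.63% of 5157 genes, and 3 of 10 after repetitive doses, among 3.38% of 12329 genes. Eln stood at 870 and 1926 CPM in single PBS and bleomycin, a fold of 2.21 [2.04 to 2.41], and at 776 and 1857 CPM in repetitive PBS and bleomycin, a fold of 2.39 [2.34 to 2.45]. Here too the gate held partly different clusters, since 63.1% of MatrixFB-gated bleomycin barcodes of the repetitive dose lay in 10 clusters that held 3.59% of those of PBS, against 8.67% and 0% in 1 cluster for the single dose. Ltbp2 went from 9.60 CPM [4.15 to 18.9], from 8 UMIs, to 104 CPM [88.4 to 122] after the single dose. After repetitive doses it went from 13.3 to 165 CPM. Immune-gated barcodes held 38.3 CPM [22.7 to 60.5] of Ltbp2 in single bleomycin and 23.7 CPM [18.2 to 30.4] in repetitive bleomycin. The single-dose ratio of Ltbp2 in this gate moved with the gate limits, as given below. Fbln1 stood at 727, 524, 560 and 721 CPM in the MatrixFB gate of single PBS, single bleomycin, repetitive PBS and repetitive bleomycin, and at 215, 274, 183 and 281 CPM in the LipoFB gate. The MatrixFB gate had the higher of these levels in all 4 lung libraries, as it also had for Fbn1 (with overlapping intervals in bleomycin), and it gave 30.8% to 53.0% of the Fbln1 UMIs of FBs from 14.0% to 28.7% of all FB UMIs. The fold of Fbln1 in single bleomycin was 1.28 [1.18 to 1.39] in the LipoFB gate and 0.720 [0.646 to 0.802] in the MatrixFB gate, opposite directions within 1 pair of libraries.

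The order of the subsets within the bleomycin libraries depended on the gene. In single bleomycin, Eln was highest in the LipoFB gate (7356 CPM), followed by the MyoFB gate (5148 CPM), the Sfrp1 gate (4319 CPM) and the MatrixFB gate (1926 CPM). In repetitive bleomycin the order was LipoFB (3879 CPM), the Hhip and Wif1 gate (3566 CPM), MyoFB (2947 CPM), Sfrp1 (2428 CPM) and MatrixFB (1857 CPM), and no neighbours in either order had overlapping counting intervals. These orders cover the gates with at least 50 barcodes, and leave out the FBs outside every gate, whose Eln level in single bleomycin, 4366.5 CPM [4233.9 to 4502.2], overlapped that of the Sfrp1 gate. Ltbp2 had another order. It was highest in the MyoFB gate, at 660 CPM [623 to 698] in single and 1117 CPM [1076 to 1159] in repetitive bleomycin, and lowest in the MatrixFB gate. In single bleomycin the Ltbp2 intervals of the LipoFB gate, 390 CPM [372 to 408], and of the Sfrp1 gate, 390 CPM [347 to 437], overlapped. The MyoFB gate gave 29.8% of the Ltbp2 UMIs from 17.6% of FB UMIs in single bleomycin and 9.47% from 4.22% in repetitive bleomycin.

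Mfap5 and Fbn1 were compared over the named gates with at least 50 barcodes in the bleomycin libraries. Mfap5 lay between 1059 CPM (MyoFB) and 1491 CPM (Sfrp1) in single bleomycin and between 1198 CPM (MyoFB) and 1474 CPM (Sfrp1) in repetitive bleomycin, while the 67 FBs of single bleomycin outside every gate held 892.9 CPM. In PBS it was higher in the MatrixFB than in the LipoFB gate, at 1248 against 687 CPM in the single and 942 against 474 CPM in the repetitive experiment. The MatrixFB level was 1247 CPM in single bleomycin, so the fold of Mfap5 was 0.999 [0.925 to 1.08] there and 1.97 [1.89 to 2.06] in the LipoFB gate. Fbn1 lay between 619.5 and 700 CPM over the LipoFB, MatrixFB, MyoFB and Sfrp1 gates of single bleomycin, and stood at 455.5 CPM in the FBs outside every gate. In repetitive bleomycin Fbn1 lay between 711 CPM [654 to 771] in the Hhip and Wif1 gate and 1024 CPM [985 to 1064.5] in the MyoFB gate, and these intervals did not overlap.

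Fbln1 in the MyoFB gate stood at 68.3 CPM [56.9 to 81.4] in single and 96.5 CPM [84.8 to 109.4] in repetitive bleomycin, the lowest of these gates in each library, although the repetitive interval overlapped that of the Sfrp1 gate, 119 CPM [98.6 to 142.6]. Fbln5 stood at 26.2 CPM [19.3 to 34.8] and 49.4 CPM [41.2 to 58.9] in the MyoFB gate, the latter overlapping the LipoFB gate at 56.9 CPM [54.3 to 59.5], and at 13.2 CPM [6.34 to 24.3] and 12.1 CPM [6.26 to 21.2] in the Sfrp1 gate. In the Hhip and Wif1 gate of the repetitive experiment, with 55 PBS and 70 bleomycin barcodes, Fbln5 went from 161 to 45.6 CPM, 3.54-fold lower [2.40 to 5.31], while Eln went from 1401 to 3566 CPM, a fold of 2.55 [2.36 to 2.75]. Mfap4 was lower in bleomycin in that gate, at 1325 and 792 CPM, against the direction in all FBs. Ltbp2 went from 75.8 CPM [55.7 to 100.7], from 47 UMIs, to 542 CPM [493 to 595] there, a fold of 7.16 [5.29 to 9.89], and in PBS this gate gave 7.46% of the Ltbp2 UMIs from 1.06% of FB UMIs. In the FBs outside every gate Ltbp2 went from 65.3 to 361 CPM in the single experiment, a fold of 5.52 [3.30 to 9.98], and from 130.5 to 753 CPM in the repetitive experiment, a fold of 5.77 [4.46 to 7.60]. These PBS levels of Ltbp2 lay above those of all PBS FBs, and the folds below those of all FBs. The FBs outside every gate were not alike in PBS and bleomycin, so their folds need not compare like cells. Their leading genes included Cd74 and Acta2 in both PBS libraries, and Ltbp2 itself in repetitive PBS. In bleomycin they included Cxcl13 in both libraries and Spp1 in the repetitive one.

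A calculation added after the data were seen weighted the subset levels of bleomycin to the subset shares of PBS. It used only subsets with at least 20 barcodes on both sides, 3 in the single and 4 in the repetitive experiment. These included the FBs outside every gate. The MyoFB and Sfrp1 gates, 17.6% and 7.29% of FB UMIs in single bleomycin, were among those left out, so not all FBs were covered. The log2 ratio of Eln was then 2.97 after the single dose and 2.38 after repetitive doses. Mfap4 came to 1.53 and 1.15 and Emilin1 to 1.11 and 1.07, both above the limit of 1 that they missed in all FBs. Fbln5 came to −0.60 and −0.37, and Fbln1 to 0.07 in the single-dose experiment.

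**Figure D3:**
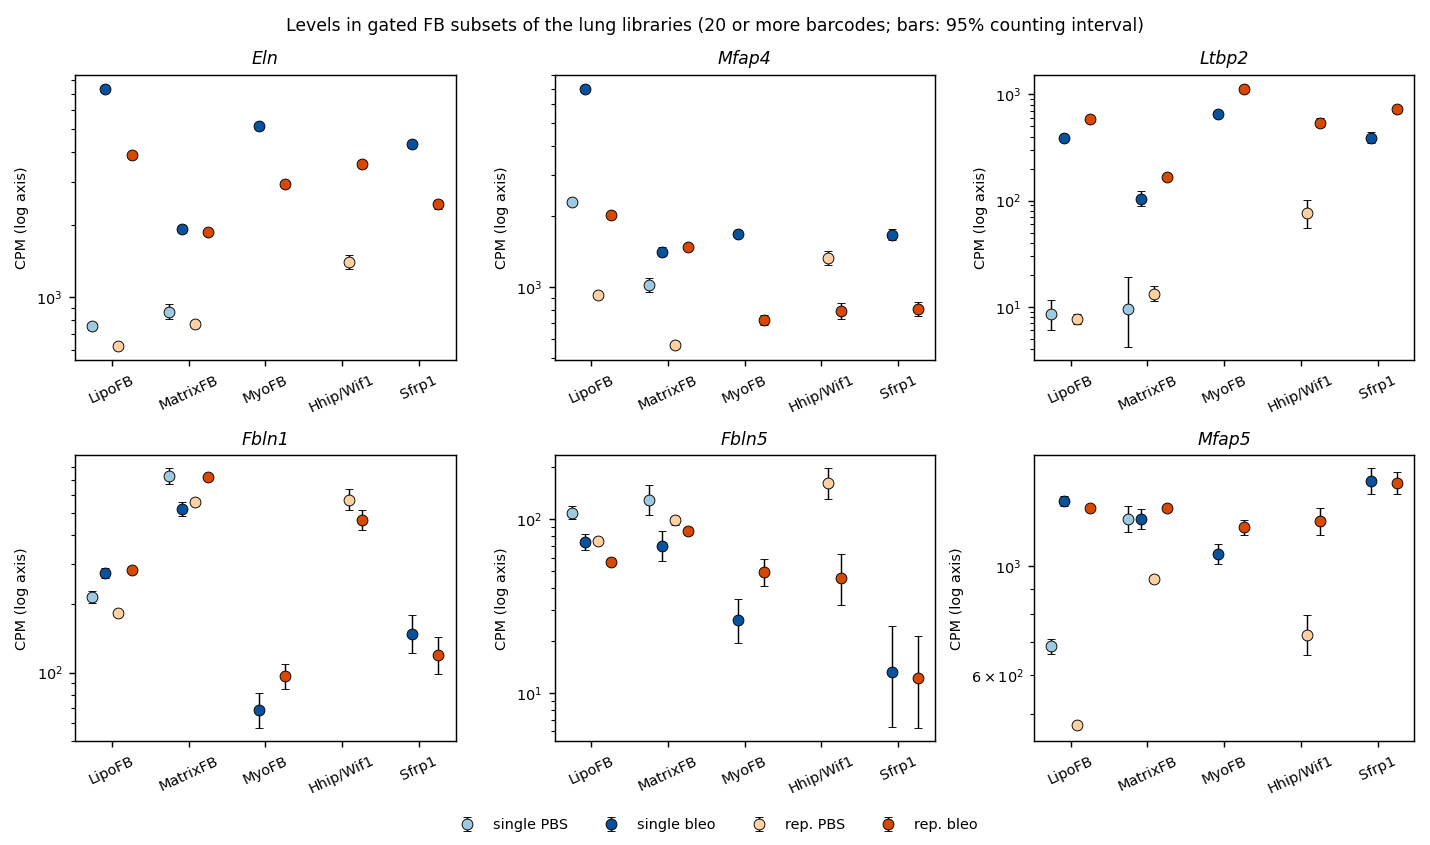
Levels of Eln, Mfap4, Ltbp2, Fbln1, Fbln5 and Mfap5 in CPM, on log axes, by marker-gated FB subset in the 4 lung libraries. Whiskers are exact 95% Poisson intervals, and gates with fewer than 20 barcodes are not drawn. Eln and Mfap4 peak in the LipoFB gate of single bleomycin, Ltbp2 is at or below 13.3 CPM in the PBS LipoFB and MatrixFB gates, and Fbln1 is higher in MatrixFB than in LipoFB gates.

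To compare single barcodes across depths, each FB barcode was thinned to 2000 UMIs, and 15 to 2229 shallower FBs per library were left out, most of them from repetitive bleomycin. Eln then had a UMI in 58.6% [55.2 to 62.0] of single PBS FBs and 91.9% [89.8 to 93.8] of single bleomycin FBs, and in 53.7% and 87.0% of repetitive PBS and bleomycin FBs. Without thinning the shares were 81.6%, 98.8%, 85.6% and 93.8%. Among immune-gated barcodes of the same libraries, which are not known to make elastin, the thinned shares were 14.6%, 53.0%, 7.76% and 21.3%, each below the FB share of its library. Their Eln level was 160, 366, 76.3 and 195 CPM. The median FB had 1, 6, 1 and 4 Eln UMIs of 2000 in these 4 libraries. FBs with at least 10 Eln UMIs of 2000 made up 1.69% and 38.1% after single PBS and bleomycin, and 0.719% and 19.5% after repetitive PBS and bleomycin. The 10% of FBs with the most Eln held 44.9% and 39.0% of the Eln UMIs in single PBS and bleomycin and 44.6% and 35.7% in repetitive PBS and bleomycin.

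Ltbp2 had a UMI in 1.32% [0.663 to 2.36] of thinned FBs in single PBS, 39.6% [36.2 to 43.2] in single bleomycin, 1.57% [1.252 to 1.952] in repetitive PBS and 42.6% [41.3 to 44.0] in repetitive bleomycin. Unthinned, the shares were 3.49%, 71.3%, 4.93% and 56.0%. The immune-gated barcodes, taken as the background, stood at 2.08% (1 of 48), 10.6%, 0% (0 of 232) and 4.81%. The single PBS immune share had an interval of 0.053 to 11.1. It is too wide to place the PBS share of the single-dose FBs above or below this background. In bleomycin the share was 66.3% and 65.9% of MyoFB-gated, 44.1% and 52.5% of LipoFB-gated and 11.7% and 23.6% of MatrixFB-gated barcodes in the single and repetitive experiments. The MatrixFB share in single bleomycin, 11.7% [7.21 to 17.7], overlapped the immune share of that library, 10.6% [4.37 to 20.6]. These shares, from 19 of 162 and 7 of 66 barcodes, thus did not separate the MatrixFB gate from this background. The intervals of the summed levels did not overlap, at 104 CPM [88.4 to 122] in the MatrixFB gate and 38.3 CPM [22.7 to 60.5] in immune-gated barcodes. In organoid FBs the thinned shares were 17.04% in normal and 24.6% in fibrogenic organoids, while the unthinned shares, 67.3% and 58.0%, had the opposite order.

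**Figure D4:**
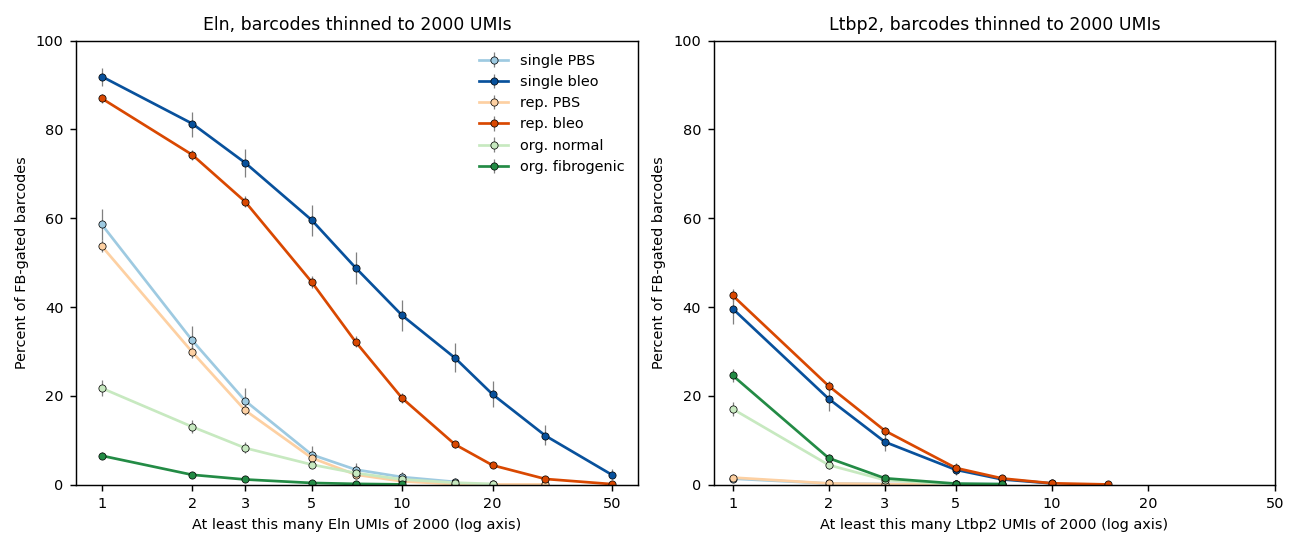
Percent of FB barcodes with at least a given number of Eln (left) or Ltbp2 (right) UMIs (log axis) after thinning to 2000 UMIs, 1 line per library, with exact 95% binomial intervals as whiskers. The single-dose bleomycin line for Eln reaches furthest to the right, with 38.1% of FBs at 10 or more UMIs, and the fibrogenic organoid line for Eln lies lowest at 1 or more UMIs, at 6.49%.

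In the organoids, MyoFB-gated barcodes made up 57.2% of normal and 56.4% of fibrogenic FBs. This gate did not set apart the FBs with high levels of its panel. The summed MyoFB panel stood at 23865 CPM in the gate and 28723.5 CPM in FBs outside every gate in normal organoids. In fibrogenic organoids these levels were 18703 and 17791 CPM. The Sfrp1 gate held 20055 CPM of that panel in normal and 6454 CPM in fibrogenic organoids. Of the fibrogenic MyoFB-gated barcodes, 29.9% lay in 10 clusters that held 1.28% of the normal ones. Eln was lower with fibrogenic FBs in each gate with at least 20 barcodes in both libraries, from 252 to 66.8 CPM in the MyoFB gate, 3.77-fold lower [3.67 to 3.87], and from 510 to 124 CPM in the Sfrp1 gate, 4.13-fold lower [3.91 to 4.37]. The log2 ratio in cycling FBs was −1.62. Of thinned FBs, 469 of 2159 normal (21.7%) and 216 of 3327 fibrogenic (6.49%) FBs had an Eln UMI, beside 0.606% and 0.301% of epithelial barcodes. Unthinned, 54.9% of normal FBs (median 49728 UMIs) and 20.9% of fibrogenic FBs (median 9525 UMIs) had one. Among all genes counted in organoid FBs, 0.0369% had a log2 ratio at or below that of Eln.

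Fbln1 was higher with fibrogenic FBs in the same gates, from 122 to 223 CPM in the MyoFB gate, a fold of 1.83 [1.79 to 1.88], and from 317 to 641 CPM in the Sfrp1 gate, a fold of 2.02 [1.95 to 2.10]. Fbln1 was itself among the leading genes of the Sfrp1 gate in fibrogenic organoids. Fbln5 had folds of 1.59 [1.52 to 1.66] and 2.67 [2.31 to 3.11] in these gates. The fibrogenic library had 33.5% and the normal library 15.9% of barcodes under 2000 UMIs, and the summed immune markers of FBs were 24.1 CPM in normal and 42.1 CPM in fibrogenic organoids, with none of the 8 markers at 0. The part of these in the differences was not tested.

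Fbln5 was the one elastic fibre gene with a higher level in organoid epithelium than in FBs. Epithelial barcodes, 1867 normal and 1861 fibrogenic, held 81.7 CPM [79.7 to 83.7] and 121 CPM [118 to 124] of Fbln5. These were 2.37-fold [2.28 to 2.46] and 1.98-fold [1.92 to 2.04] the FB level, and the fibrogenic epithelium stood 1.481-fold [1.432 to 1.531] above the normal epithelium. After thinning, 9.92% and 14.4% of epithelial barcodes had a Fbln5 UMI, beside 5.19% and 9.02% of FBs. Efemp2 stood in the epithelium at 12.5% and 11.8% of its FB level and Ltbp2 at 4.72% and 3.66%, and the other 7 genes were at 0.778% to 2.11%. The summed epithelial markers of organoid FBs were 66.8 CPM in normal and 62.2 CPM in fibrogenic organoids, with none of the 7 markers at 0, and their part in the FB level of Fbln5 was not tested. Lung libraries held at most 20 epithelial barcodes each, too few to compare. Mfap2 had a similar feature in lung endothelial barcodes, at 162 CPM [115 to 223] in single PBS (31 barcodes) and 119 CPM [102 to 138] in repetitive PBS (96 barcodes), which were 2.27-fold and 2.77-fold the FB level. In repetitive bleomycin, 25 endothelial barcodes held 79.3 CPM of Mfap2, 0.608 of the FB level. Ltbp2 was also higher in endothelial barcodes of repetitive PBS, at 31.4 CPM [22.9 to 42.0] against 10.8 CPM [9.98 to 11.7] in FBs. In single PBS it stood at 25.6 CPM [9.40 to 55.7] against 11.2 CPM [8.70 to 14.3], overlapping intervals. In repetitive bleomycin the endothelial barcodes held 5.66 CPM of Ltbp2, against 497 CPM in FBs.

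**Figure D5:**
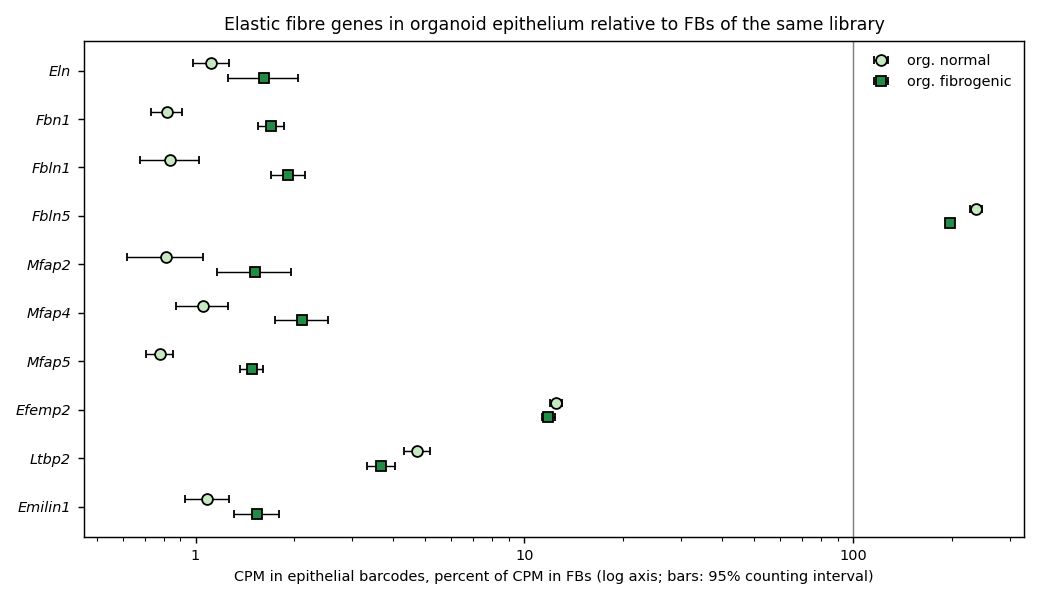
Level of each elastic fibre gene in epithelial barcodes as a percent of its level in FB barcodes, on a log axis, in normal and fibrogenic organoids. Whiskers are exact 95% counting intervals. Fbln5 is the only gene above 100%, at 2.37-fold and 1.98-fold the FB level.

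The rest of the elastic fibre pathway was followed with 25 further genes for microfibrils and assembly, crosslinking and secretion, and elastin degradation. In single-dose FBs, 21 of the 25 had at least 50 UMIs, and 11 were raised and 2 lowered, beside 7.94% and 3.72% of all genes, with a median log2 ratio of 1.02 beside 0.08. With 10 CPM added in place of 1, 7 were raised and 1 lowered. No share of all genes was computed with 10 CPM, so the counts at that setting have no matching background. In repetitive-dose FBs all 25 were counted, 12 were raised and none lowered, beside 7.02% and 1.85% of all genes, with a median of 0.91 beside 0.11, and 6 were raised with 10 CPM added. In organoid FBs 24 were counted, none was raised and Fbn2 (−1.19) and Thsd4 (−1.30) were lowered, beside 0.246% and 0.782% of all genes, with a median of 0.01 beside −0.01, and 0 were lowered with 10 CPM added.

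Among microfibril and assembly genes, 4 of 11 were raised and 2 lowered after the single dose, and 4 of 12 raised after repetitive doses, beside 7.94%, 3.72% and 7.02% of all genes. With 10 CPM added, 1 was raised (Fbln2) and 1 lowered (Ltbp4) after the single dose and 2 were raised (Fbln2 and Thsd4) after repetitive doses. Those shares of all genes are with 1 CPM added, and none was computed with 10 CPM. The median log2 ratios of the list were 0.27 and 0.50. Fbn2, the fibrillin of developing tissue, had 0 UMIs in single PBS FBs and 52 in single bleomycin FBs (5.01 CPM [3.74 to 6.58]). In the repetitive FBs it had 5 and 562 UMIs. Fbln2, a fibulin of vessel walls and remodelling tissue, had log2 ratios of 2.00 and 1.44, and Emilin2 1.07 and 1.00. Adamtsl2, which binds fibrillin and latent TGFB binding proteins, was raised after the single dose, at 1.02, and Thsd4, which promotes fibrillin assembly, after repetitive doses, at 3.42. Neither Adamtsl2 nor Emilin2 was past the limit with 10 CPM added. Ltbp4, which works with fibulin-5 in laying down elastin, was lowered after the single dose at −1.24 and stood at −0.70 after repetitive doses. Efemp1, fibulin-3, had log2 ratios of −1.02 and −0.74. Ltbp4 thus took the direction of Fbln5 in both lung experiments.

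Of the crosslinking and secretion genes, 3 of 6 were raised after the single dose and 2 of 7 after repetitive doses, beside 7.94% and 7.02% of all genes, and 3 and 1 with 10 CPM added. The lysyl oxidases Loxl2 (1.61 and 1.35) and Loxl3 (1.86 and 1.22) were raised in both, while Lox was at 1.30 after the single dose and 0.23 after repetitive doses. Of the degrading enzymes, all 4 counted after the single dose were raised, as were all 6 after repetitive doses, beside the same shares of all genes. With 10 CPM added to both levels, 3 of the 4 and 3 of the 6 (Mmp2, Mmp14 and Ctsk in both) were raised. The shares of all genes named above are with 1 CPM added, and none was computed with 10 CPM. Mmp2 had log2 ratios of 1.41 and 2.21, Mmp14, which activates it, 1.54 and 1.20, and Ctsk, a strong elastase of the cathepsin family, 2.13 and 2.98. Ctss had 1.59 and 2.55, and Mmp9 and Mmp12 had 1.10 and 2.14 after repetitive doses, where Mmp12 rested on 214 UMIs in bleomycin and 2 in PBS. Ctss, Mmp9 and Mmp12 are also genes of macrophages and neutrophils, and the summed immune markers of FBs were 27.5 and 61.0 CPM in single PBS and bleomycin and 7.99 and 41.2 CPM in repetitive PBS and bleomycin. The part of immune RNA in these values was not tested.

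The genes most like Eln were ranked by Pearson r of log2(CPM + 1) over 17 lung FB subset-by-library groups with at least 50 barcodes, among 5043 genes. These groups share libraries and depth, so r is a description only. The first 5 were Ppic (0.92), Crlf2 (0.90), Col16a1 (0.89), Slc44a2 (0.89) and Ltbp2 (0.89). Among the other elastic fibre genes, Mfap2 came to 0.85 and Emilin1 to 0.74, while Fbln1 came to −0.44 and Fbln5 to −0.59. For Mfap5, the first 5 were Col3a1 (0.87), a gene of the FB gate, Mdk (0.86), Ptgfrn (0.84), Cilp (0.83) and Sfrp1 (0.83), which is itself a gate gene, and Fbln1 came to 0.02.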

How the data were processed

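Single cells of 6 10x libraries were measured by scRNA-Seq. The authors aligned the reads to mm10 (GRCm38), and the submitters' processing notes name Cell Ranger 3.0.1 and Seurat 3. The deposited values are raw UMI counts per gene symbol and barcode, without normalization, for barcodes called as cells. Counting of multi-mapped and antisense reads was not given in the sources used here.

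Barcodes with at least 1000 UMIs, mitochondrial counts within 3 scaled median absolute deviations and at most 0.5% erythrocyte counts were kept. FBs had at least 5 UMIs of at least 3 of 6 FB genes (Col1a1, Col1a2, Col3a1, Col6a1, Col6a2, Pdgfra), with epithelial, endothelial and immune panels each at most 20% of them. Subsets needed summed panel levels of 3000 (MyoFB), 5000 (MatrixFB), 1500 (LipoFB), 1000 (Hhip and Wif1) or 500 CPM (Sfrp1). They also needed at least 3 panel genes detected, or 2 UMIs for Sfrp1, a need that depends on depth. Doublets were not called. The 10 members, the other lists and the gates were chosen with earlier results of these data known. Named genes were all members, other pathway genes past a log2 ratio of 1 in lung FBs, and the 5 genes most like Eln and Mfap5.

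Depth was 7201081, 11869967, 64697147, 68354458, 211680702 and 238618743 UMIs in single PBS, single bleomycin, repetitive PBS, repetitive bleomycin, normal organoid and fibrogenic organoid libraries. Exact Poisson, conditional and Clopper-Pearson 95% intervals cover counting error only, and p-values were not computed, with 1 library per condition. Promoters came from RefSeq and gene positions from the GENCODE M21 annotation. Python 3.11.15, numpy 2.4.6, scipy 1.17.1, pandas 2.3.3 and, for the Leiden alternative, scanpy 1.11.5 were used. Ratios, intervals and gates were checked on simulated data. For the gates, each simulated barcode carried a single panel, spread evenly over its genes, at a common depth. Shallow barcodes and mixed panels were therefore not covered. Alternatives changed the barcode filter, the scaling, the added CPM, the gates, the barcodes used and the thinning.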

Additional observations from a re-analysis of the deposited data

Results flagged for a closer look

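For 8 of the 10 elastic fibre genes, the log2 ratio in FBs had opposite signs in different experiments, and these differences between experiments were not tested, since each condition was 1 library. Eln was at 2.72 after the single dose, 2.22 after repetitive doses and −1.93 in organoids. Fbn1 was at 2.07, 1.02 and −0.21, Mfap2 at 1.84, 1.58 and −0.39, and Mfap4 at 0.94, 0.96 and −0.60 in the same order. Mfap5 was at 0.66, 1.19 and −0.11, and Emilin1 at 0.85, 0.91 and −0.11. Fbln5 had the reverse order of signs, at −1.04, −0.36 and 0.81. Fbln1 was at −0.27 after the single dose and at 0.59 and 0.78 in the repetitive and organoid experiments. The organoid FBs had been cultured with AEC2s for 2 weeks, and their libraries had 211680702 and 238618743 UMIs against at most 68354458 in the lung. Over all deposited barcodes the organoid ratios of Fbn1 (0.08), Mfap5 (0.19) and Emilin1 (0.18) were above 0. These 3 genes then had no opposite signs. Those barcodes include other cells, and the FB share differed. FBs held 118603999 of 211680702 UMIs in normal and 165301663 of 238618743 UMIs in fibrogenic organoids. All-barcode ratios are therefore not ratios within FBs, and the part of the FB share in them was not tested. Culture, depth and injury cannot be told apart in these 6 libraries. The single-dose libraries also had a shorter gene list than the others, and its part was not tested.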

How the results depend on the processing

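Each FB comparison was recomputed under 15 alternatives, of which 1, the weighting to PBS-side subset shares, was added after seeing the data. No direction reversed among the raised or lowered genes. The numbers of raised members stayed within 1.5 times their values under each, except that in organoids 1 gene (Fbln1, at 1.08) in place of 0 was raised when all deposited barcodes were used. The 1 lowered gene after the single dose, Fbln5, was no longer lowered (0 genes) with the mean CPM per barcode, with 10 CPM added, with all deposited barcodes, without the top 5% of barcodes by UMIs, without cycling, mesothelial and smooth muscle barcodes, and with PBS-side weights, and its log2 ratio ranged from −1.11 to −0.60. With 10 CPM added, the other pathway genes raised went from 11 to 7 and lowered from 2 to 1 after the single dose, raised from 12 to 6 after repetitive doses, and lowered from 2 to 0 in organoids. The share of all genes past the limit was not computed with 10 CPM, so these counts have no matching background. Eln ranged from 2.64 to 2.97 after the single dose, 2.11 to 2.38 after repetitive doses and −2.47 to −1.65 in organoids, and Ltbp2 from 4.24 to 5.58 and 4.61 to 5.51 in the lung. Ltbp2 in the MatrixFB gate of the single dose ranged from 2.98 to 5.65 with the limits of the gates. Fbln1 after the single dose changed sign in 2 of 15 alternatives. Fbn1, Mfap5 and Emilin1 in organoids did so in 1 of 15, with all deposited barcodes, which hold other cells besides FBs. Efemp2 after the single dose stayed at or above 1 in 13 of 15, and Fbn1 after repetitive doses in 11 of 15, from 0.91 to 1.03. The cause of these moves was not tested.

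No paired analysis was possible because each condition had 1 library, and leaving out a replicate was not possible either. Depth limits the PBS level of Ltbp2, at 67 UMIs in the single-dose FBs and 8 UMIs in their MatrixFB gate.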
